A study of Mus musculus with 39 samples.

Results

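To describe the expression program of the young lung, the 4 lung libraries of young mice were compared with the 4 kidney and the 4 liver libraries of mice of the same age, 12 of the 39 libraries of the study. All of these animals were Prf1-/- mice on the C57BL/6 background, lacking perforin, the pore-forming protein of cytotoxic lymphocytes. The labels do not give their sex. The young mice were 3 months old and had received no treatment. Old mice of the same genotype, 20 months old and given the vehicle solution of the drug ABT-737 on consecutive days of each month, provided 3 libraries per tissue in which the tissue differences were looked at again. Organs were taken after perfusion, and mRNA was read from its 3′ ends by a bulk form of MARS-seq. No wild-type library was compared, so every value below describes perforin-deficient tissue, and the labels do not say whether the lung, kidney and liver of the same replicate number came from the same mouse. The libraries are separate samples of whole organs, so that fewer cells of a type and less RNA per cell cannot be told apart.

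The lung is built around gas exchange. Flat alveolar type 1 cells and a dense capillary bed form the exchange surface, alveolar type 2 cells secrete surfactant, club and ciliated cells line the airways, and elastic fibres laid down by mesenchymal cells let the organ recoil. Liver and kidney are instead metabolic organs, whose hepatocytes and proximal tubule cells make glucose, break down amino acids and fatty acids and carry many of the same transporters under the control of shared nuclear receptors.

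A gene was called lung-high when its adjusted p in edgeR's quasi-likelihood test was under 0.05 against kidney and against liver and it was higher in lung in both, and lung-low when the same held in the opposite direction. Of 11867 genes tested, 4326 were higher in lung than in kidney (36.5%) and 4540 lower (38.3%), and 4818 were higher than in liver (40.6%) and 3417 lower (28.8%). In both comparisons at once, 3402 genes were lung-high (28.7% of those tested) and 2511 were lung-low (21.2%), and these 2 shares are the background against which each gene list is read below. Lung values did not overlap those of either other tissue for 3073 of the lung-high and 2060 of the lung-low genes. The difference in mean was at least 4-fold against both organs for 789 lung-high and 686 lung-low genes, where a group below 3 counts per library was set to 3 counts. A further 327 genes lay between the organs, above kidney and below liver, and 580 lay above liver and below kidney.

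**Figure D1:**
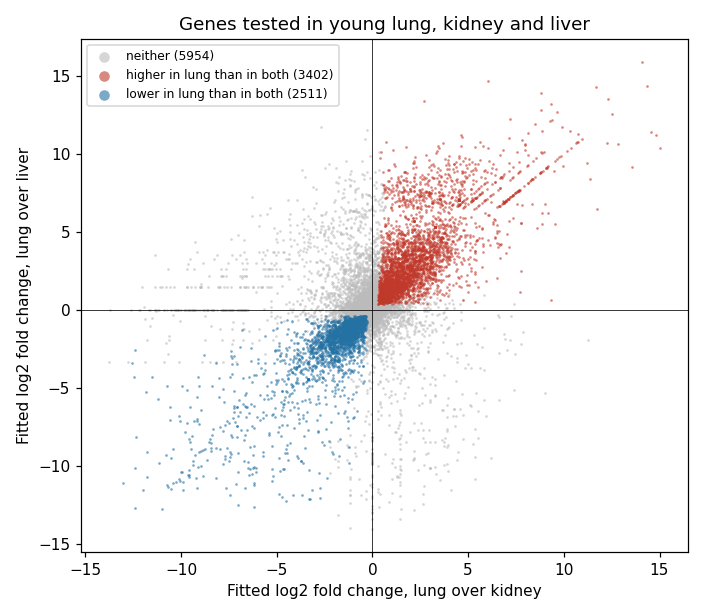
Each point is 1 of the 11867 genes tested, with its fitted log2 fold change of lung over kidney on the horizontal and of lung over liver on the vertical axis, coloured by its call in the 2 comparisons. The 3402 lung-high genes fill the upper right and the 2511 lung-low genes the lower left, and the thin straight lines of points far from the centre are genes with counts at or near 0 in an organ, whose fitted value depends on the small count added in the fit.

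Levels are given as CPM, read counts scaled to a common library size after TMM normalization. The lung libraries held 1506934 to 2033866 counts (median 1935485.5), the kidney libraries 2218423 to 3513311 (median 2819393) and the liver libraries 527995 to 672778 (median 596252). A count of 3, used as the floor of detection, was worth 1.17 to 1.67 CPM in lung, 0.746 to 1.22 CPM in kidney and 6.28 to 7.94 CPM in liver, so low levels are least well resolved in liver. Spearman correlations over the genes tested were 0.962 to 0.972 among the 4 lung libraries, against 0.507 to 0.539 between lung and kidney and 0.408 to 0.444 between lung and liver libraries. Prf1 itself, on the plus strand of chromosome 10 of mm10 from 61297836 to 61304263, had 8.61, 7.24, 6.93 and 6.27 CPM in lung replicates 1 to 4, with at most 11 counts in any kidney and 1 in any liver library. It was called lung-high, and because reads from the 3′ end of a transcript need not cover the disrupted part of the gene, these counts do not check the genotype, which rests on the labels.

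Promoter sequence is shown for gene groups that were called together. A promoter window of 300 bases, from 250 before to 50 after the transcription start, was found for 9151 of the 11867 genes tested in RefSeq's GRCm38.p6 annotation. The letters GTTGCC, found in sites of the RFX factors that switch on cilia genes, were present on either strand in the window of 17 of the 24 ciliated cell genes that have one (70.8%), against 14.8% of the genes tested and 12.5% of all 32851 windows. The 6 ciliated cell genes shown here are the lung-high ones with the highest lung level among those whose window holds the letters, with each match inside the 100 bases shown in capitals, on whichever strand it was found (GGCAAC is GTTGCC read on the opposite strand).
Dynlrb2, chr8:116504917-116505016, plus strand: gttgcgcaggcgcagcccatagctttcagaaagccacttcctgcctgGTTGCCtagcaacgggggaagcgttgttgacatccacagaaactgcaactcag
Cdhr3, chr12:33092829-33092928, minus strand: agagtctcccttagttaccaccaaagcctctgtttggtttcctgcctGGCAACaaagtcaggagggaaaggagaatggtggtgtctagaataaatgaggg
Lrrc23, chr6:124779832-124779931, minus strand: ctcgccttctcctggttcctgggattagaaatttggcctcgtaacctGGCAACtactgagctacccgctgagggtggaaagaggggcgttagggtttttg
1110017D15Rik, chr4:41507727-41507826, minus strand: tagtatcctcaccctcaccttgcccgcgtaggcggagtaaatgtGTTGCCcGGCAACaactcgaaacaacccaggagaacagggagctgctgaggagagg
Ccdc113, chr8:95534047-95534146, plus strand: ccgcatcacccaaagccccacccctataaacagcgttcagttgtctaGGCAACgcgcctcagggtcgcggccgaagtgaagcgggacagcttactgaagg
Tekt1, chr11:72361855-72361954, minus strand: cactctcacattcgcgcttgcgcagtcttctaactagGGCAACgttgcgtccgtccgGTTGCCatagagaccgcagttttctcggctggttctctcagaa
In 1110017D15Rik and Tekt1 the stretch holds 2 matches, on opposite strands, the window of Lrrc23 holds a further match outside the stretch, and in Cdhr3 and Ccdc113 the match begins 6 bases before the start site.

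The letters CTTGAG, a core of sites bound by the lung and thyroid factor NKX2-1, were in the windows of 5 of 15 alveolar type 2 genes (33.3%) and 5 of 13 club cell genes (38.5%), against 16.7% of the genes tested and 15.9% of all windows. The share was as high in lists of other tissues, 8 of 21 transporters shared by liver and kidney (38.1%) and 4 of 10 heart muscle genes (40%), and near the background in lung-high and lung-low genes at least 4-fold apart (18.5% and 18.1%). The other NKX2-1 core, CACTTG, was in 2 of the 15 type 2 windows and in 13.6% of all windows, and TGTTTAC, a forkhead site, in 2 of 15 and 3.65%. The lists hold few genes, and 1 gene more or less moves these shares by several points. The 4 lung-high genes of these lists with the highest lung level among those with CTTGAG are shown, with the match in capitals (CTCAAG on the opposite strand); the window of Sftpb holds a further match outside the stretch.
Sftpa1, chr14:41131575-41131674, plus strand: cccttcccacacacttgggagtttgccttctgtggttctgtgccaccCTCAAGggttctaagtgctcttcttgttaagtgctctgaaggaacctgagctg
Sftpb, chr6:72304463-72304562, plus strand: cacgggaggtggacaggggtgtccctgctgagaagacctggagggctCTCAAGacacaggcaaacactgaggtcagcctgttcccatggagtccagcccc
Cxcl15, chr5:90794484-90794583, plus strand: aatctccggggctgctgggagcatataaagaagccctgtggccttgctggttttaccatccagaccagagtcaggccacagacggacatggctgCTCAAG
Scgb3a1, chr11:49663376-49663475, plus strand: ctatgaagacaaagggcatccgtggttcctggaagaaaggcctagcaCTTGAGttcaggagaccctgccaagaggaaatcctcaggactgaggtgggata

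Among genes lower in lung, CAAAGTCCA, a core of sites of the nuclear receptor Hnf4a, was in 9 of the 541 windows of lung-low genes at least 4-fold apart (1.66%), against 0.546% of those of the genes tested. It was in 4 of the 535 windows of lung-high genes at least 4-fold apart (0.748%). Of the lists read below, it was in 1 of 32 amino acid breakdown and 1 of 12 hepatocyte windows. It was in 0 of 12 gluconeogenesis, 0 of 28 fatty acid oxidation, 0 of 19 TCA cycle and 0 of 21 shared transporter windows. A match of letters is a description of the window and not a bound site, and no test was made of these shares.

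Surfactant genes were high in every lung library and at or near 0 in the other organs. Sftpc, which encodes the hydrophobic surfactant protein C of alveolar type 2 cells, had 11166, 14448, 11527 and 12889 CPM in lung replicates 1 to 4. No kidney library held more than 4 counts of it and no liver library more than 5. The collagen-like protein Sftpa1 had 4451, 5683, 4152 and 4476 CPM in lung, with at most 1 count in kidney and 3 in liver. Sftpb, which spreads the surfactant film, had 3179.7, 3561, 4801 and 3464 CPM and was at 0 in every liver library, at least 527-fold lower than in lung by the floor of 3 counts. The fourth, Sftpd, a lectin of innate defence, stood at 2042, 1794, 1584 and 1399 CPM in lung and at no more than 3 counts in any library of the other organs. For each of these 4 genes the lung values were far above all 8 other libraries (adjusted p of 8.21e-20 or lower in both comparisons).

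Of 18 tested alveolar type 2 markers, 14 were lung-high and 0 lung-low, and the median log2 ratio of mean CPM was 8.55 against kidney and 6.60 against liver, where all genes tested had medians of -0.0162 and 0.00962. Lung-high members included the chemokine Cxcl15 (1396, 1325, 1159 and 1360.2 CPM), which was at 0 in all 8 kidney and liver libraries and so at least 1346-fold above kidney and 184-fold above liver. Lamp3, a lysosomal membrane protein of lamellar bodies, had 973, 1098, 1017 and 1122 CPM with at most 2 counts in any kidney and 1 in any liver library. The phosphate transporter Slc34a2 had 961, 990.1, 949.8 and 935 CPM, 467-fold the kidney mean of 2.05 ± 0.965 CPM (SD, n = 4), and 0 counts in liver. Chil1, a chitinase-like protein, had 1247, 1272, 1049.8 and 1428 CPM, at most 2 counts in kidney and 0 in liver. The list's summed level was 28449.7 to 33250.0 CPM in the 4 lungs, 5057 to 5749 CPM in the kidneys and 874 to 1048 CPM in the livers.

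The kidney sum came largely from a single member, and the 4 type 2 markers that failed to be lung-high are named here after their values were seen. Napsa, the aspartic protease that matures surfactant protein B, had 513, 524, 509.8 and 631 CPM in lung but 4595, 4372, 4378 and 5051 CPM in kidney, 8.45-fold more (log2 fold change -3.08, SE 0.195, adjusted p = 1.37e-14), while liver held at most 5 counts. Hc, which encodes a complement protein, had 146, 137, 178 and 171 CPM in lung, 0 in kidney and a higher level in liver (500.3, 633, 639.7 and 585 CPM), 3.73-fold above lung. For Abca3, the lipid pump of lamellar bodies, lung (362 ± 48.1 CPM, SD, n = 4) and kidney (420.3 ± 24.4 CPM) did not differ beyond their spread (log2 fold change -0.22, SE 0.139, adjusted p = 0.16), and lung was 4.45-fold above liver. Ctsh, a cathepsin, was 1.30-fold above kidney (adjusted p = 0.0155) and not separable from liver (adjusted p = 0.205). With total counts in place of TMM both differences were called (smaller log2 fold change 0.49, larger adjusted p = 0.00233). These genes mark type 2 cells within a lung, but in whole organs they were shared with kidney or liver.

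Genes that supply the lipid of surfactant did not follow the surfactant proteins. Of 16 tested members of this list 6 were lung-high and 1 was lung-low, with medians of 1.64 against kidney and 0.519 against liver on the log2 scale. Fasn, fatty acid synthase, had 234, 317, 243 and 181 CPM in lung, 5.25-fold the kidney mean, and was 2.52-fold higher in liver (613 ± 137 CPM, SD, n = 4). Scd1, the desaturase that makes oleate, was 3.26-fold above kidney and 14.3-fold lower than in liver (2748, 1345, 3265 and 3113 CPM in liver). Elovl6, an elongase of long fatty acids, was the lung-low member, with 2.35, 2.78, 0.433 and 0.837 CPM in lung, 6.84-fold below kidney (10.9 ± 2.64 CPM) and 63.3-fold below liver. Lung stood between kidney and liver for Fasn and Scd1. Prdx6, a peroxiredoxin that also recycles surfactant phospholipid, was lung-high at 1069, 1292, 1505 and 1656 CPM, 4.89-fold above kidney and 1.46-fold above liver (adjusted p = 0.00298).

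**Figure D2:**
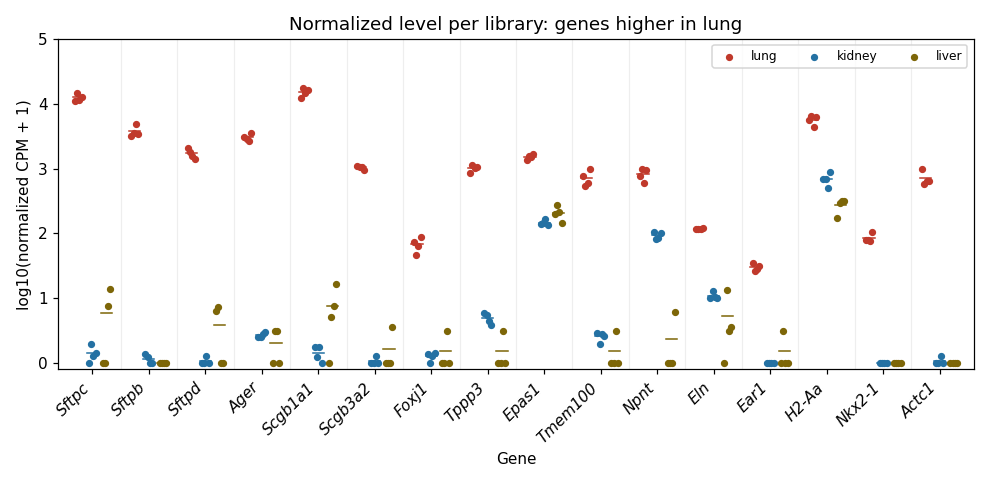
Each point is 1 library, with log10 of normalized CPM plus 1 on the vertical axis for 16 lung-high genes, and short bars mark the log10 of the group mean plus 1 over 4 libraries. All lung points lie above all kidney and liver points of the same gene, by the widest margins for the surfactant and secretoglobin genes, and Epas1 and H2-Aa are also well detected in the other organs.

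Alveolar type 1 markers gave 15 lung-high and 0 lung-low of 19 tested, with median log2 ratios of 4.34 and 4.15. Of the other 4, 2 were called lower in lung than in kidney and 1 lower than in liver. Ager, the receptor for advanced glycation end products that coats the basal face of these cells, had 3098, 2870.1, 2624 and 3546 CPM in lung, 1763-fold the kidney mean of 1.72 ± 0.265 CPM, and at most 1 count in a liver library. Gprc5a, a receptor of lung epithelium, stood at 2906, 3663, 2939 and 3147 CPM, 286-fold above kidney. Cldn18, a tight junction claudin, had 622, 620.0, 588 and 542 CPM with 1 to 5 counts in kidney and 0 in liver, at least 83.3-fold below lung. Aqp5, the water channel of the type 1 apical membrane, had 173, 219.8, 178 and 274 CPM, at most 2 counts in kidney and 0 in liver. Hopx, a homeodomain protein, varied among the lungs, with 1069, 818, 1053 and 338 CPM, and even its lowest lung value exceeded the highest liver value of 270.2 CPM. Emp2, a membrane protein of the type 1 surface, had 399.6, 373, 447 and 287 CPM, 52.9-fold above kidney and 39.3-fold above liver. All 15 of the lung-high members had lung values clear of both organs.

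Markers of the secretory cells of the airway were also high in lung, with 17 of 18 tested members lung-high and 0 lung-low (medians 5.87 and 3.76). The remaining member was called higher than in kidney and lower than in liver. Scgb1a1, the club cell secretoglobin, had 12028, 17416, 14396 and 16486 CPM in lung, with at most 3 counts in any kidney and 6 in any liver library. Scgb3a2, a related secretoglobin, had 1092, 1052, 1061 and 963 CPM and no more than 1 count in any of the other 8 libraries. Bpifa1, a secreted defence protein of the upper airway, had 574, 375, 289.7 and 241 CPM in lung and 0 in kidney and liver, and Scgb3a1 had 488, 503, 329.6 and 189 CPM. Bpifa1 and Scgb3a1 were lowest in lung replicate 4 and differed more between the lungs than Scgb3a2 did. Carbonyl reductase Cbr2 had 9399.9, 12370.2, 11391 and 14027 CPM, 826-fold above kidney, with at most 2 counts in liver. Not every club cell gene was absent elsewhere: the naphthalene-oxidizing enzyme Cyp2f2 had 5053, 5383, 5444 and 5746 CPM in lung and 3446, 3869, 3286 and 3489 CPM in liver, only 1.53-fold apart (log2 fold change 0.62, SE 0.178, adjusted p = 0.00296), but was 641-fold above kidney. Cyp2b10, of another cytochrome P450 family, had 952, 1178, 1382 and 1504 CPM in lung, with at most 4 counts in kidney and 2 in liver.

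Of 21 tested genes of ciliated cells, which beat mucus out of the airways, 19 were lung-high and 0 lung-low, with medians of 4.17 and 1.46. Another 1 was called lower in lung than in kidney. For a gene at 0 in liver the ratio is limited by the value of 3 counts there, 6.28 to 7.94 CPM. Foxj1, the master regulator of motile cilia, had 72.0, 45.1, 62.4 and 87.0 CPM in lung and at most 1 count in any kidney or liver library. Tppp3, a tubulin-binding protein, had 842, 1146, 1014 and 1062 CPM, 259-fold above kidney, with 1 count in all liver libraries together. The atypical cadherin Cdhr3, whose window is shown above, had 33.3, 34.5, 44.2 and 28.0 CPM and Ccdc40, which orders the cilium's inner arms, 28.6, 27.3, 29.9 and 27.2 CPM, and both were at 0 in all 8 other libraries. Dynlrb2, a dynein light chain, had 35.6, 42.3, 51.5 and 36.0 CPM, and the microtubule protein Tekt1 had 20.4, 14.5, 17.8 and 17.6 CPM. Lrrc23, 1110017D15Rik and Ccdc113 had means of 26.9 ± 5.10, 25.5 ± 6.54 and 19.7 ± 4.85 CPM in lung (SD, n = 4), 0 counts in liver and at most 4 in any kidney library. Thinned to the depth of the shallowest liver library, 527995 counts each, the 12 libraries left 11 ciliated genes lung-high.

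Endothelial genes were nearly all higher in lung, with 27 of 28 tested genes lung-high, 0 lung-low and medians of 3.24 and 3.71. Many of these genes were also detected in kidney and liver. Pecam1, the adhesion molecule CD31, had 517, 449.7, 519 and 579.7 CPM in lung, 51.8 ± 3.91 in kidney and 30.3 ± 11.5 in liver, 9.97-fold and 17-fold lower. Epas1, the hypoxia-inducible factor of endothelium, had 1337, 1545, 1496 and 1686 CPM in lung, 10.5-fold above kidney and 7.36-fold above liver. Acvrl1, a receptor for bone morphogenetic proteins in arteries, had 946, 721, 865 and 791 CPM, 25.9-fold above kidney (log2 fold change 4.70, SE 0.166), with at most 4 counts in liver. Calcrl, the receptor for adrenomedullin, had 438, 508, 376 and 606 CPM, 87.3-fold and 54.5-fold higher. The exception was Emcn, a mucin of capillaries and glomeruli, which had 29.4, 21.1, 26.4 and 36.0 CPM in lung and 20.8, 34.3, 34.9 and 37.1 CPM in kidney (adjusted p = 0.412).

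Genes that set lung capillaries apart from other vessels gave 14 lung-high of 18 tested (medians 3.59 and 3.63). In this list 2 genes were called lower in lung than in kidney and 0 lower than in liver. Tmem100, a target of bone morphogenetic protein signalling, had 756, 535, 597 and 981 CPM in lung, 451-fold above kidney, and at most 1 count in liver. Fendrr, a long noncoding RNA beside Foxf1, had 818, 615, 835 and 680.5 CPM with at most 1 count in kidney and 5 in liver. Prx, a PDZ-domain protein of lung endothelium, had 312, 267, 353 and 282 CPM, 155-fold above kidney, and 0 counts in liver. Car4, a carbonic anhydrase on the capillary surface, had 233, 218, 197 and 106 CPM in lung against 299, 214, 189 and 227 CPM in kidney and 0 in liver, so that lung and kidney did not differ beyond their spread (log2 fold change -0.30, SE 0.183, adjusted p = 0.139). With the replicate number as a block, lung was lower than kidney (log2 fold change -0.33, adjusted p = 0.0493).

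Mesenchymal, smooth muscle and matrix genes followed the endothelium. Among lung mesenchymal genes 13 of 15 tested were lung-high, among smooth muscle and pericyte genes 17 of 18 and among elastic fibre genes 18 of 19, with 0 lung-low in each and medians of 2.69 to 3.40 against either organ. One-sided calls the other way were 1 mesenchymal gene lower in lung than in kidney. Inmt, a methyltransferase, was abundant in every organ, with 5746, 6171, 6139.6 and 7207 CPM in lung, 2.87-fold above kidney and 2.65-fold above liver. Npnt, a basement membrane ligand of integrins, had 771, 973, 589 and 941 CPM, 8.93-fold above kidney (log2 fold change 3.16, SE 0.180), with at most 2 counts in liver. Foxf1, which directs lung mesenchyme, was uneven, with 476, 124, 227 and 212 CPM in the 4 lungs, at most 2 counts in kidney and 3 in liver. The T-box factor Tbx2 had 432, 539, 457 and 606 CPM, 4.78-fold above kidney and 44.9-fold above liver. Tbx4 and Tbx5, which pattern lung buds and were named after their values were seen, had means of 71.5 ± 17.3 and 46.6 ± 3.79 CPM in lung, 0 counts in liver and at most 1 in any kidney library.

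Contractile and matrix genes were mostly detected in kidney too, and several were at or near 0 in liver. Tagln, an actin-binding protein of smooth muscle whose end overlaps Pcsk7 by 95 bases on the opposite strand, had 257, 180.3, 246 and 311 CPM in lung, 4.43-fold above kidney and 35.5-fold above liver. Pdgfrb, the pericyte receptor, had 277, 122, 123 and 221 CPM, 4.32-fold and 26.7-fold higher. Hhip, a hedgehog inhibitor, had 129.6, 109.6, 97.4 and 139.7 CPM in lung and 1.10 ± 0.250 CPM in kidney. Eln, elastin itself, was even between the lungs, with 116, 116, 117 and 122 CPM in lung, 9.80 ± 1.28 in kidney and 0 to 6 counts in liver. Ltbp4, which places elastin on microfibrils, had 985, 862, 869 and 1179 CPM, 11.2-fold and 10.4-fold higher, and Mfap4 had 304, 308, 289 and 424 CPM, 198-fold above kidney. Fbln5, another protein of elastic fibre assembly, was the member without a call, with 91.2 ± 14.8 CPM in lung and 90.8 ± 22.5 in kidney (adjusted p = 0.931) and 20.4-fold less in liver.

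Immune cells formed a further part of the lung program. Of the alveolar macrophage markers 14 of 20 tested were lung-high, of the lymphocyte markers 12 of 13, of the monocyte and neutrophil markers 10 of 10 and of the MHC class II genes 10 of 10, and 0 in any of these lists was lung-low. However, 2 macrophage markers were called lower in lung than in liver, among them F7 (means of 38.5 and 264 CPM). Chil3, a chitinase-like protein of alveolar macrophages, had 748, 865, 695 and 856 CPM in lung, with at most 2 counts in kidney and 3 in liver. Itgax, the integrin CD11c, had 110.4, 119, 104 and 125 CPM, 25.1-fold above kidney, and Ear1, an eosinophil-associated ribonuclease of a large family, had 34.4, 25.6, 26.9 and 30.5 CPM and 0 counts in kidney. Lyz2, lysozyme of myeloid cells, had 229.8, 394, 254 and 372 CPM, 19.4-fold above liver, with 6 to 16 counts in each kidney library.

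The summed level of the MHC class II genes was 11108 to 14477 CPM in lung, 1692 to 2366 in kidney and 664 to 1052 in liver. H2-Aa, a class II alpha chain, had 5639, 6369, 4385 and 6296 CPM in lung, 8.26-fold above kidney (log2 fold change 3.05, SE 0.217) and 20.6-fold above liver. Cd74, the invariant chain, had 1869.7, 1232, 1460.4 and 1443 CPM, 5.02-fold and 10.6-fold higher, and Ciita, the transactivator of both, had 25.0, 42.9, 32.5 and 38.5 CPM, 5.45-fold and 15.4-fold higher. Among lymphocyte genes, the chemokine Ccl5 had 123, 116, 165 and 173 CPM and the granule protein Nkg7 had 26.6, 20.6, 34.6 and 29.3 CPM. Ccl5 was 10.6-fold above kidney and 14.2-fold above liver. Of the 8 thymocyte markers, Rag1, Rag2 and Ptcra were at 0 in all lung libraries, while both members tested were lung-high, Satb1 (13.3, 10, 8.23 and 10 CPM) and Cd8b1 (9.39, 5.57, 7.80 and 6.69 CPM), which mature T cells also express. Thinned to equal depth, 5 lymphocyte, 6 monocyte and neutrophil and 0 thymocyte genes were lung-high.

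**Figure D3:**
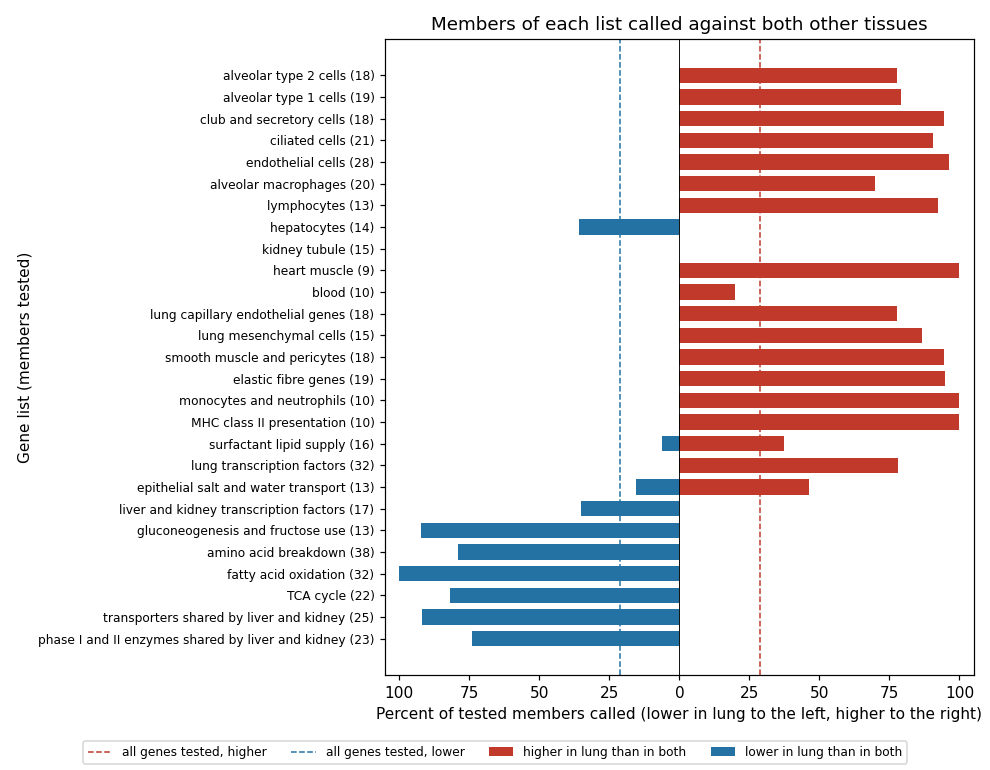
Bars give, for each gene list with at least 9 members tested (the number in brackets), the percent of tested members that were lung-high to the right and lung-low to the left, and dashed lines give the shares over all genes tested, 28.7% and 21.2%. Cell type and matrix lists of the lung extend to the right, the metabolic lists of liver and kidney to the left, and surfactant lipid supply and salt and water transport to both sides.

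Transcription factors of the lung were mostly lung-high, 25 of 32 tested with 0 lung-low (medians 2.50 and 2.19). Among the rest, 3 were called lower in lung than in kidney and 2 lower than in liver. Nkx2-1, the factor that specifies lung and thyroid, lies on the minus strand of chromosome 12 from 56531935 to 56536908 (mm10) and is named after its values were seen. It had 77.5, 77.4, 75.4 and 103 CPM in the 4 lungs and 0 counts in all 8 other libraries, at least 85.5-fold lower in kidney and 11.7-fold lower in liver. The forkhead factor Foxp1 had 162, 209, 187 and 226 CPM, 6.58-fold above kidney and 5.51-fold above liver, and the Krüppel-like factor Klf5 had 125, 191, 167 and 202 CPM, 19.7-fold above kidney with at most 1 count in liver. Hoxa5, which lies within the span of Hoxa3 on the same strand so that their reads may not be separable, had 149, 111, 147 and 169 CPM, 4.28-fold above kidney. Not lung-high were Foxa1 and Foxa2, forkhead factors of endoderm, also named after their values were seen. Foxa2 had 12.9, 15, 12.1 and 15.1 CPM in lung, 0 in kidney and 55.6, 58.7, 64.4 and 67.8 CPM in liver. Foxa1 had 9.45 ± 1.81 CPM in lung, 0.653 ± 0.433 in kidney and 29.0 ± 17.3 in liver. For both, lung lay above kidney and below liver (adjusted p of 0.00015 or lower in each comparison).

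Salt and water transport was divided. Of 13 tested members 6 were lung-high and 2 lung-low (medians 0.332 and 2.49). Scnn1a, the alpha subunit of the epithelial sodium channel, had 668, 799, 919 and 850.3 CPM in lung, 4.07-fold above kidney and 12.2-fold above liver. Aqp1, the water channel of endothelium and proximal tubule, had 843, 745, 948 and 721 CPM in lung and 795, 726, 726 and 729.5 in kidney, which did not differ beyond their spread (log2 fold change 0.13, SE 0.142, adjusted p = 0.414) in edgeR's test but did with DESeq2 (log2 fold change 0.31, adjusted p = 0.00996), and 5.6-fold less in liver.

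The lung libraries were then checked for tissue carried along with the organ. Heart muscle genes were lung-high in 9 of 9 tested, with a summed level of 875 to 1591 CPM in lung, 2.24 to 5.25 in kidney and 2.65 to 7.83 in liver. Actc1, cardiac actin, had 996, 578, 644 and 649.5 CPM in lung, at most 1 count in kidney and 0 in liver. Myl7, the atrial myosin light chain, had 234, 106, 88.4 and 198 CPM and Myh6, the alpha myosin heavy chain, 43.8, 34.5, 27.3 and 43.5 CPM. Replicate 1 had the highest value of each. The part of heart or of the muscular wall of pulmonary veins in these values was not tested. Among 10 cartilage genes, 7 were at 0 in all lungs, but Chad, a cartilage matrix protein and the only member tested, was lung-high at 32.5, 34.5, 41.6 and 38.9 CPM, with 0 counts in all 8 other libraries. Chad overlaps Acsf2, and Ckm, below, overlaps A930016O22Rik, each on the opposite strand. The part of airway cartilage or other tissue in this value was not tested. The 11 skeletal muscle genes summed to 23.0 to 31.7 CPM in lung, below the 40.8 to 55.5 CPM of kidney, although Ckm, muscle creatine kinase, was lung-high (11.7, 7.24, 5.20 and 10.9 CPM), 1 of the 2 members tested, and was named like Chad after its values were seen. Blood genes summed to 1496 to 2913 CPM in lung, 1374 to 7432 in kidney and 721 to 2258 in liver, so the ranges overlapped after perfusion.

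Markers of the other organs were low in lung and differed between the lungs. Hepatocyte genes summed to 881, 383, 449 and 608 CPM in lung replicates 1 to 4, against 183583 to 206382 CPM in liver and 404 to 635 in kidney. Most of the sum in each lung came from Trf, with 475, 322, 413 and 506 CPM, which was 15.5-fold above kidney. The plasma proteins Apoa1 (115, 1.67, 1.73 and 4.60 CPM) and Ahsg (102, 17.8, 4.76 and 27.6 CPM) were highest in replicate 1, whereas albumin, Alb, was not (10.6, 7.24, 0.433 and 12.1 CPM against a liver mean of 49593 ± 5184). Apoa1 was called higher in lung than in kidney (log2 fold change 3.95, SE 0.857, adjusted p = 0.000149), and without lung replicate 1 it was not (log2 fold change 0.45, adjusted p = 0.413). Umod, of the kidney's thick ascending limb, had 7 counts in lung replicate 3 and 0 in the other 3 lungs, and the kidney tubule list summed to 20.1 to 30.8 CPM in lung against 17231 to 18719.6 in kidney. With each of the 12 libraries left out in turn, 3364 to 3460 genes were lung-high and 2416 to 2556 lung-low.

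Among genes lower in lung were many members of pathways that liver and kidney share, in lists chosen with earlier results of these data known. Of the genes of gluconeogenesis and fructose use 12 of 13 tested were lung-low, with median log2 ratios of -6.15 against kidney and -5.60 against liver, and the summed level was 171 to 206 CPM in lung against 13714 to 14932 in kidney and 21966 to 26893 in liver. Fbp1, fructose-1,6-bisphosphatase, had 0 to 10 counts per lung library and 1840.0 ± 66.1 and 2271 ± 123 CPM in kidney and liver (SD, n = 4), 717-fold and 885-fold higher. Pck1, which commits oxaloacetate to glucose, had 27.4, 16.7, 16.5 and 24.7 CPM in lung, 196-fold below kidney and 461-fold below liver. G6pc, the last step of glucose release, had at most 1 count in any lung library, 173 ± 30.5 CPM in kidney and 177 ± 85.5 in liver, and is named after its values were seen. Khk, ketohexokinase, was less extreme, with 27.8, 23.4, 21.2 and 36.4 CPM in lung and log2 fold changes of -5.27 (SE 0.218) and -5.17 (SE 0.220).

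Amino acid breakdown showed the same contrast, with 30 of 38 tested members lung-low and 0 lung-high (medians -3.17 and -6.09). Pipox, which oxidizes pipecolic acid, had 2 to 3 counts in every lung library and 542 ± 44.2 and 575 ± 39 CPM in kidney and liver. Hgd, of tyrosine breakdown, had at most 3 counts per lung library and 397 ± 43.0 and 787 ± 79.2 CPM in the other organs, and Haao, of tryptophan breakdown, had 23.5, 27.8, 16.0 and 30.1 CPM in lung, with log2 fold changes of -4.72 (SE 0.236) and -6.40 (SE 0.251). Aldh8a1 was at 0 in all 4 lungs, at least 258-fold below kidney and 314-fold below liver. Ass1, which makes argininosuccinate, had 45, 25, 32.9 and 29.3 CPM in lung and was 134-fold and 177-fold higher in kidney and liver, but its reads cannot be separated from the overlapping Gm5424. Cps1, the entry enzyme of the urea cycle, was at 0 in lung and at no more than 1 count in kidney, with 982, 1119, 972 and 887 CPM in liver, so it was low against liver only.

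All tested genes of fatty acid oxidation were lung-low, 32 of 32 tested members, with medians of -2.31 and -3.24. Of the members named in this report, Acadm and Acadl were reduced rather than absent, whereas Acsm2, described below, was near the floor of detection in lung. Acadm, medium-chain acyl-CoA dehydrogenase, had 18.0, 23.9, 14.3 and 17.6 CPM in lung, 597 ± 110.4 in kidney and 303 ± 54.2 in liver, 32.4-fold and 16.4-fold higher. Acadl, the long-chain enzyme, had 144, 122, 141 and 145 CPM in lung and was 3.38-fold and 3.08-fold higher in kidney and liver. Slc27a2, the very long-chain acyl-CoA synthetase and fatty acid transporter, belongs to the transporter list. It had 1 to 3 counts per lung library against 1869.5 ± 165 CPM in kidney and 758 ± 88.8 in liver.

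Genes of the TCA cycle, which nearly every cell runs, were lower as well: 18 of 22 tested members were lung-low, 22 were below kidney and 18 below liver, and the medians were -2.33 and -1.59. Mdh1, the cytosolic malate dehydrogenase counted in this list, had 85.7, 54, 100 and 59 CPM in lung, 21-fold below kidney and 14.8-fold below liver. Sdhb, the iron-sulfur subunit of succinate dehydrogenase, had 90.4, 112, 126 and 79.5 CPM in lung, 9.62-fold and 6.60-fold below.

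Transporters and drug-metabolizing enzymes held in common by liver and kidney were lung-low in 23 of 25 and 17 of 23 tested members, with 0 lung-high in either list. Both lists were picked as genes of these organs, so their counts are a description and not a test. Cyp4a10, a fatty acid hydroxylase, was uneven in the organs that express it, with 326, 384, 475 and 629 CPM in kidney and 307, 314, 822 and 391 CPM in liver, and had at most 4 counts in lung. Cyp2e1, the ethanol-inducible cytochrome, had 43.4, 30.6, 27.7 and 28.0 CPM in lung, 42.1-fold below kidney and 255-fold below liver. Cyp27a1, the sterol 27-hydroxylase, barely differed from kidney, with 46.5 ± 2.95 CPM in lung and 64.4 ± 8.40 in kidney (log2 fold change -0.47, SE 0.160, adjusted p = 0.00911), and was 26.1-fold below liver. Its call against kidney was lost with median-ratio scaling (adjusted p = 0.0967). Other genes with large lung-low differences were Glyat and Keg1, of the glycine acyltransferase family, Cyp2j5, Ugt3a2 and the iminopropionate deaminase Rida, of which Rida alone exceeded 3 counts in a lung library (4 to 16 counts). Glyat had 746, 675, 699 and 702 CPM in kidney and 545, 593, 414 and 493 in liver, and 1 count in the 4 lungs together. Acsm2, an acyl-CoA synthetase, was high in kidney only, with 3295 ± 197 CPM there and at most 4 counts in lung and 3 in liver, and its lung-low call was lost without liver replicate 1 (adjusted p = 0.185), without liver replicate 2 (adjusted p = 0.172) and without lung replicate 1 (adjusted p = 0.0526). Cyp2b10, Cyp2j5, Cyp4a10, Ugt3a2, Acsm2, Ear1 and Chil3 belong to families of similar genes among which reads may have been divided.

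**Figure D4:**
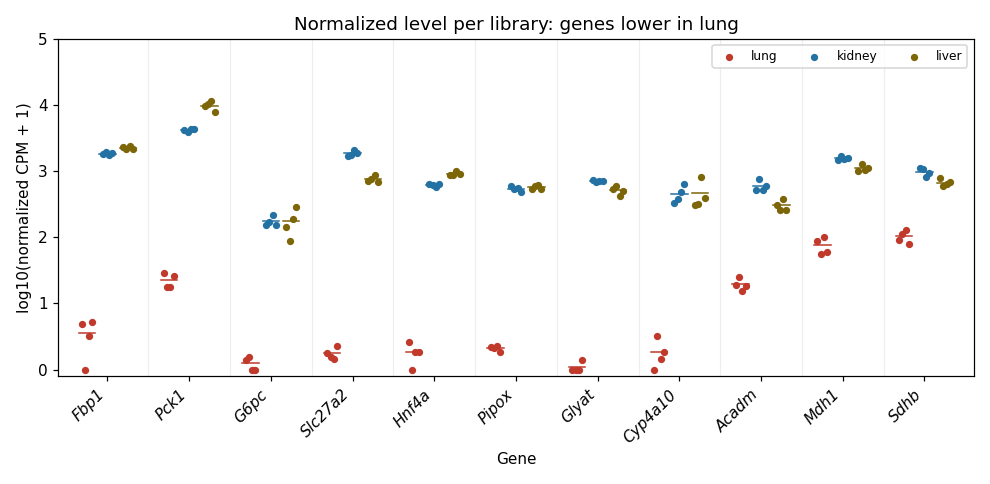
Each point is 1 library, with log10 of normalized CPM plus 1 on the vertical axis for 11 lung-low genes, and short bars mark the log10 of the group mean plus 1 over 4 libraries. Lung points of Glyat, G6pc and Slc27a2 lie near 0, whereas those of Acadm, Mdh1 and Sdhb lie between 14.3 and 126 CPM, below all kidney and liver points.

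The transcription factors of liver and kidney were lung-low in 6 of 17 tested members, with 0 lung-high and medians of -3.57 and -2.40. Against kidney 12 were called lower and 1 higher, and against liver 11 lower and 1 higher. The median of -2.40 against liver is that of a gene below the floor in both organs, 1.35 CPM in lung and 7.12 CPM in liver. It therefore does not measure a difference from liver. Hnf4a, the nuclear receptor that maintains hepatocytes and proximal tubule, on the plus strand of chromosome 2 from 163547155 to 163572907, had 4, 0, 2 and 2 counts in the 4 lungs, 648, 616, 578 and 629 CPM in kidney and 876, 867, 1007 and 900.2 CPM in liver, 756-fold and 1117-fold higher. Nr1h4, the bile acid receptor, had at most 2 counts per lung library and 197 ± 20.6 and 204 ± 37.9 CPM in the organs. Ppara, which drives fatty acid oxidation, was detected in lung at 7.05, 3.90, 7.80 and 5.02 CPM, 20.3-fold below kidney and 42.7-fold below liver. Hepatocyte markers, chosen for liver alone, were lung-low in 5 of 14 tested, and kidney tubule markers, chosen for kidney alone, in 0 of 15.

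The tissue differences were looked at again in 20-month-old vehicle-treated mice, in libraries that had no part in choosing the genes. Their spread was wider, with a biological coefficient of variation of 30.5% against 14.3% in young mice. Of 11318 genes tested there, 1601 were lung-high (14.1%) and 1230 lung-low (10.9%). Among the young lung-high genes 3049 were tested in old mice, of which 1323 (43.4%) were lung-high again, 4 were lung-low and 2602 (85.3%) kept the sign of both differences. Among the young lung-low genes 2442 were tested, of which 1074 (44%) were lung-low again, 2 were lung-high and 1962 (80.3%) kept both signs. For the genes at least 4-fold apart in young mice, 621 of 772 lung-high (80.4%) and 523 of 667 lung-low genes (78.4%) were called again and 98.6% and 94% kept both signs. Seen from the old mice, 82.6% of their lung-high and 87.3% of their lung-low genes were called in young mice.

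Old lung replicate 5 stood apart from the other 2 old lungs. Its lymphocyte markers summed to 9438 CPM against 2567 and 3378 in replicates 3 and 4, while its club cell markers summed to 11940.4 against 30493 and 29533, its type 1 markers to 2875 against 8173 and 6382 and its endothelial markers to 2738 against 6073 and 7376. The 4 young lungs had lymphocyte sums of 352 to 486 CPM, within their own scaling. Without that library, 1723 genes were lung-high and 1249 lung-low in old mice, 1483 and 1120 of them also in young mice.

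The list medians had the same sign in old mice for every list with at least 9 members tested, except that of the hepatocyte markers against kidney (0.431 in young and -1.88 in old mice). Against liver, the kidney tubule list and the list of liver and kidney transcription factors had identical medians at each age (-2.40 and -3.05). The young value is that of the floors in lung and liver, so these signs do not show a tissue difference. Sftpc had 13334, 10624 and 8961 CPM and Scgb1a1 16174, 14911 and 5727 CPM in old lung replicates 3 to 5, with at most 3.70 CPM in any old kidney or liver library. Type 2 markers were lung-high in 15 of 18 tested, ciliated in 16 of 18 and club in 14 of 17, and gluconeogenesis genes lung-low in 12 of 13 and transporters in 20 of 25. Lower shares were called for smooth muscle and pericyte genes, 9 of 18, lung transcription factors, 12 of 31, and TCA cycle genes, 10 of 22. The medians against kidney were 1.80 for endothelial, 1.47 for smooth muscle and -1.68 for TCA cycle genes.

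**Figure D5:**
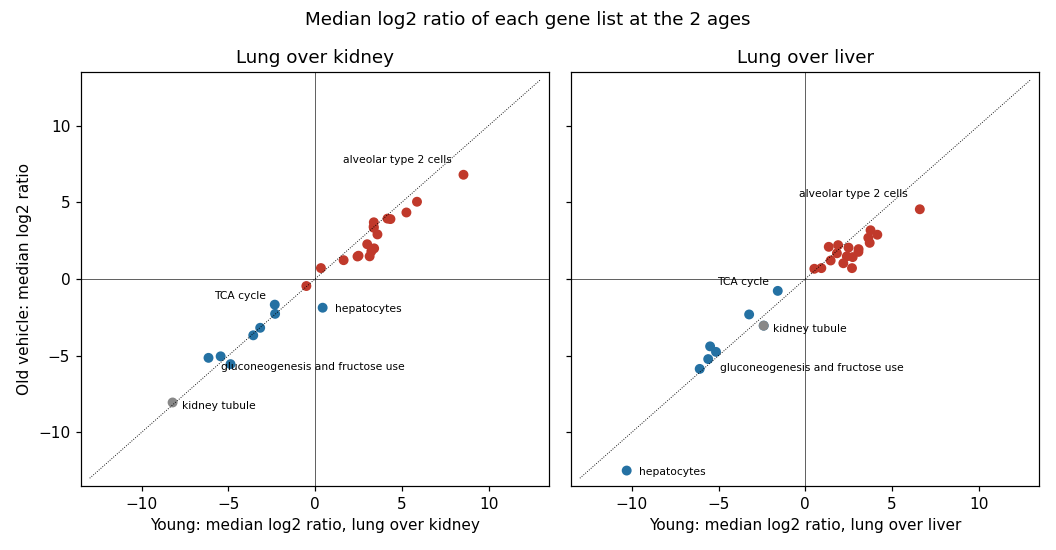
Each point is a gene list with at least 9 members tested in young mice, with its median log2 ratio of lung over kidney (left) or liver (right) in young mice on the horizontal and in old vehicle mice on the vertical axis; red lists have more lung-high and blue lists more lung-low members in young mice, grey lists equal numbers, and the dotted line marks equality. Most lung-high lists lie below the line, as endothelial genes do at 3.24 in young and 1.80 in old mice against kidney, and all lists but the hepatocytes against kidney have the same sign at both ages.

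Whether a tissue difference itself changed between the ages was tested with an interaction term over young and old vehicle libraries, in which the young libraries that chose the genes also take part. The young mice were untreated and all the old mice compared had received vehicle, so age and injection cannot be told apart. Of 12835 genes tested, the difference of lung from kidney changed for 1489 (11.6%), with lung higher relative to kidney in old mice (upward) for 710 and lower (downward) for 779, and the difference from liver changed for 1683 (13.1%), 832 upward and 851 downward. Both changed in the same direction for 344 genes upward and 344 downward. Endothelial genes moved downward only, in 12 of 28 against kidney and 7 of 28 against liver, and without old lung replicate 5 in 8 and 5. Smooth muscle and pericyte genes moved downward in 9 and 4 of 18, and in 7 and 4 without that library. Genes of the TCA cycle, which were lower in young lung, moved upward in 5 and 10 of 22, and in 3 and 10 without it, and those of fatty acid oxidation in 4 and 9 of 32, and in 1 and 10.

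Values of single genes show the levels behind such changes. Npnt had 159, 213 and 70.3 CPM in old lung, below the 589 CPM of the lowest young lung, and 137, 135 and 156 in old kidney, with a change of -3.09 in its log2 difference from kidney (SE 0.424, adjusted p = 7.92e-05). Pdgfrb stood at 18.3, 38.1 and 24.3 CPM in old lung, and its difference changed by -3 against kidney and -4.11 against liver (adjusted p = 0.000372). Acvrl1 was lower in old lung (463, 573 and 239 CPM) and higher in old liver (36.6, 33.9 and 38.2 CPM) than in the young organs, with a change of -3.78 against liver (SE 0.567). For H2-Aa the old lungs were higher than the young ones, at 7189, 10448 and 9854 CPM, and old kidneys (4357, 3388 and 2341 CPM) and livers (3308, 3284 and 1499 CPM) were above the young ones too, and its difference from liver changed by -2.46 (SE 0.468, adjusted p = 0.00106). CPM values of the 2 ages were scaled in separate fits, and these comparisons of level are descriptions, whereas the changes come from the common fit.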

How the data were processed

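Raw read counts per RefSeq gene were deposited by the authors for kidney, liver and lung, made per the labels with bcl2fastq, HISAT version 0.1.5 and HOMER on mm10. Whether strand or molecular identifiers were used in counting is not given in the sources used here. The skin table was not used here. The members and the 32 gene lists (582 genes) were chosen with earlier results of these data known. The 12 young libraries were fitted together with edgeR 4.0.16 (R 4.3.3; TMM scaling, filterByExpr, quasi-likelihood F test, Benjamini-Hochberg adjustment, two-sided) without a replicate block, old vehicle libraries in a fit of their own, and both ages in a joint fit with an interaction term. Ratios and folds are of mean CPM, and log2 fold changes are fitted. For list medians, the 4-fold cut and the ranking of genes, groups under 3 counts were set to that floor. Folds of single genes used the floor only where a group had 0 counts in every library. Intervals and floors cover counting error only, and p-values measure only the spread between these samples. The genes named were the 15 called in each direction with the largest smaller difference, up to 8 members per list, and others said to be chosen after their values were seen, including Lrrc23, Ccdc113, 1110017D15Rik and Tekt1. Promoter windows are from RefSeq. The young fit and the interaction fit were tried on simulated counts, and the fit of old libraries alone was not. The simulation used the spread of the young libraries and set most genes equal in all tissues. That spread was a biological coefficient of variation of 14.3%, against 22.6% in the joint fit of both ages. The simulation therefore cannot vouch for the interaction calls, or for organs in which many genes differ. Alternatives used DESeq2 1.42.0, other scalings and filters, thinning and leaving out each library. Some genes covered by these rules are not reported here.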

Additional observations from a re-analysis of the deposited data

Results flagged for a closer look

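In 15 of 254 groups of 4 young libraries, 1 library lay far from the other 3 by Dixon's criterion, which chance alone passes in about 1 in 20 groups. The library was high for Napsa in lung replicate 4 (631 against 509.8 to 524 CPM), Tbx2 in liver replicate 2 (20.9 against 7.83 to 8.59 CPM), Inmt in liver replicate 3 (2917 against 2149 to 2281 CPM), Mfap4 in lung replicate 4 (424 against 289 to 308 CPM), Fbln5 in lung replicate 4 (113 against 83 to 85.2 CPM), Itgax in liver replicate 2 (8.38 against 0 in the others, CPM), Ccl5 in liver replicate 4 (15.7 against 7.94 to 8.59 CPM), Nkx2-1 in lung replicate 4 (103 against 75.4 to 77.5 CPM), Aqp1 in kidney replicate 1 (795 against 726 to 729.5 CPM), Actc1 in lung replicate 1 (996 against 578 to 649.5 CPM), Apoa1 in lung replicate 1 (115 against 1.67 to 4.6 CPM), Umod in lung replicate 3 (3.03 against 0 in the others, CPM) and Cyp4a10 in liver replicate 3 (822 against 307 to 391 CPM). It was low for Tmem212 in lung replicate 2 (36.7 against 57.1 to 59.8 CPM) and Fasn in liver replicate 2 (411 against 664 to 713 CPM).

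The lung difference of 31 named genes changed between young and old vehicle mice in edgeR's interaction test (adjusted p of 0.05 or lower), given here as the change in log2 difference. Against kidney it was downward for Slc34a2 (-1.51), Gprc5a (-2.19), Emp2 (-1.81), Foxj1 (-2.57), Epas1 (-1.24), Acvrl1 (-1.53), Tbx2 (-1.72), Npnt (-3.09), Tagln (-1.72), Pdgfrb (-3), Lyz2 (-1.78), H2-Aa (-1.57), Foxp1 (-0.83), Klf5 (-1.63), Scnn1a (-1.30), Ahsg (-5.56) and Hnf4a (-3.89), and upward for Ctsh (0.92), Elovl6 (1.91), Ass1 (1.70) and Acadm (1.47). Against liver it was downward for Napsa (-3), Emp2 (-2.47), Epas1 (-1.54), Pecam1 (-1.62), Acvrl1 (-3.78), Tagln (-2.52), Pdgfrb (-4.11), H2-Aa (-2.46), Cd74 (-1.89), Foxp1 (-1.57), Apoa1 (-5.29), Ahsg (-2.78), Ckm (-8.30) and Hnf4a (-3.94), and upward for Foxa1 (3.25), Foxa2 (1.83), Elovl6 (2.86), Rida (2.76), Acadm (1.74), Acadl (1.05) and Mdh1 (1.76). Of these 42 changes, 31 were still called without old lung replicate 5 and 42 had the same sign. Those of Hnf4a rest on 0 to 4 counts per young lung library, and that of Ckm on 12 counts in old liver replicate 5, with 0 in the other old and the young livers. Both changes of Hnf4a and that of Ahsg against liver were not called without old lung replicate 5. Apoa1 and Ahsg had 115 and 102 CPM in young lung replicate 1, and at most 4.6 and 27.6 CPM in the other young lungs. The part of that library in their changes was not tested.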

How the results depend on the processing

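The liver libraries were the shallowest, so low genes are least resolved there. With total counts in place of TMM, 6998 genes were higher and 2109 lower than in liver and 1568 lung-low, and with median-ratio factors 4891 were higher and 3963 lower than in kidney. With at least 10 counts in every library, which tests fewer genes, 1406 were higher and 1414 lower than in kidney, 1270 and 1447 than in liver, and 972 lung-high and 1061 lung-low. Thinned to 527995 counts, 2870 were higher and 2953 lower than in kidney. Tested against a fold of 2, 2590 were higher and 2362 lower than in kidney, 2056 lower than in liver, 1990 lung-high and 1223 lung-low. Leaving out a library gave 4249 to 4485 higher and 4410 to 4667 lower than kidney, 4571 to 4969 and 3249 to 3636 against liver, 1185 to 1723 lung-high and 1050 to 1359 lung-low in old mice, 1029 to 1483 and 930 to 1165 of these also in young mice, and age changes in 1231 to 2428 genes against liver. Against kidney the age changes ran from 801 (without kidney vehicle 4) to 2808 (without lung vehicle 4), with 879 without kidney vehicle 5, 957 without young kidney 4 and 915 without lung vehicle 5; the cause was not tested. The sign turned for Emcn against kidney with median-ratio factors (0.0183) and DESeq2 (0.0170), and with total counts for Umod against liver (0.17). Leaving out single libraries moved Fbln5 between -0.15 and 0.13 and Cps1 between -1.39 and 0, both against kidney. It moved Umod between -4.26 and 0.0281 against liver, where no library held more than 1 count of it. With the replicate number as a block, 3405 genes were lung-high and 2516 lung-low, Car4 was called lower than in kidney (adjusted p = 0.0493) and 1 blood gene lung-low, against 0 without the block. Deviations from the tissue mean had correlations of -0.0582 to 0.115 between same-numbered libraries (median 0.0494). Between differently numbered libraries they were -0.141 to 0.0951 (median -0.0194). These values cannot show whether the numbers mark the same mouse.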
